A study of Homo sapiens with 6 samples.

Results

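The genes described here encode the enzymes of central carbohydrate metabolism in Hep3B cells, a long-established line from a human hepatocellular carcinoma: glycolysis and its regulators, the pyruvate dehydrogenase step, gluconeogenesis, the pentose phosphate pathway, glycogen turnover and the tricarboxylic acid (TCA) cycle. A list of 57 gene symbols was matched to the array's annotation, and a gene was kept when a probe had a detection p-value under 0.01 on at least 3 of 6 arrays. Each gene was represented by its brightest such probe, which left 50 of the 57 listed genes, among 10598 genes measured in all. Choosing the brightest probe used the mean over all arrays and not the difference between groups. Of the other 7, FH had no named probe here and 6 (PFKFB1, LDHB, PDK1, PCK1, G6PC1 and GYS2) had probes below the detection filter.

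One group of 3 samples was treated with sorafenib for 24 h at a labelled dose of 3 mM, and the other group of 3 received only the solvent, DMSO, for the same 24 h. Sorafenib inhibits RAF and receptor tyrosine kinases. All 6 samples are unmodified Hep3B cultures from 1 cell line, and nothing in the labels tells whether the numbered replicates were grown separately. The p-values therefore reflect only the spread among these arrays, and this may be technical. Cell culture work with this drug uses micromolar doses as a rule, and the labelled unit could not be checked here.

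An array detected 16214 to 17380 of its 47321 probes. Of 14 genes listed as markers of hepatocytes or liver cancer, 11 were measured, including AFP, ALB, APOA1 and GPC3, and HNF4A had no named probe here. Their summed linear intensity was 147141 to 153824 on sorafenib arrays and 157823 to 165846 on control arrays, with 2 genes higher and 3 lower past the threshold. None of 4 endothelial markers was measured, 1 of 6 fibroblast markers was (LUM, lower, with 1060 to 1115 on sorafenib arrays and 1505 to 1760 on control arrays), and of 6 leukocyte markers CD14, CD68 and LYZ were measured, of which hepatocytes also make CD14, with a summed intensity of 1463 to 1684 on sorafenib arrays and 1629 to 1679 on control arrays. Within that sum LYZ was lower (log2 -1.82) and CD14 higher (0.43), both past the threshold, and CD68 did not pass. PTPRC and CD3E, which define leukocytes, were below the detection filter. The part of these markers in the results was not tested.

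Glycolysis splits glucose into pyruvate, and its pace is set largely at phosphofructokinase, which is activated by the sugar phosphate that the PFKFB enzymes make and break down. Pyruvate is then reduced to lactate or carried into mitochondria, where pyruvate dehydrogenase feeds it to the TCA cycle. Hepatocytes can also run the path backwards to release glucose, store glucose as glycogen, and divert it to the pentose phosphate pathway for NADPH and ribose, and many liver cancers express less of the glucose-producing enzymes than normal liver.

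PCK2 rose and PFKFB3 fell by more than any other gene of the list, and most pathways held both risen and fallen genes. Of the 50 genes, 13 rose, 12 fell and 25 did not pass the threshold, an adjusted p of 0.05 in limma (Benjamini-Hochberg over all 16909 tested probes). The share past the threshold was 50%, against a background of 36.7% of all genes measured. For rises the share was 26.0% against a background of 19.7%, and for falls 24.0% against 17.0%. PFKP and PDK2 passed the filter only through the sorafenib arrays, where they were higher, so a difference was built into their selection and the share of rises is no support for a direction. With detection required on all 6 arrays, which also left out ENO2, 10 of 47 genes were higher (21.3%, against 20.5% of all genes) and 12 lower (25.5%, against 19.0%). The genes are bright, with a median level of 10.91 on the log2 scale against 9.14 for all genes. Their median log2 difference was -0.03 (all genes 0.00). A difference of at least 0.5 on the log2 scale past the threshold was seen in 11 of 50 (22.0%, background 15.3%), and one of at least 1 in 2 of 50, PCK2 and PFKFB3 (4.00%, background 2.78%). The groups did not overlap for 30 of 50 genes (60.0%, background 53.5%). For every one of the 25 genes that did not pass, the 95% interval of the difference stayed within 0.44 of 0. Arrays centred on their median, in place of quantile normalization, gave 12 genes higher and 5 lower (70.6% higher, against 52.0% here), and 69.8% of all called genes were then higher, against 53.7% here. Leaving out control replicate 1 gave 16 genes past the threshold in place of 25 (32%, against 25.6% of all genes in that fit). The number that fell was then 6 in place of 12 (12%, against 11.4% of all genes). It was also 6 without sorafenib replicate 2 (12%, against 12.5%) and 7 without control replicate 3 (14%, against 13.8%).

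**Figure D1:**
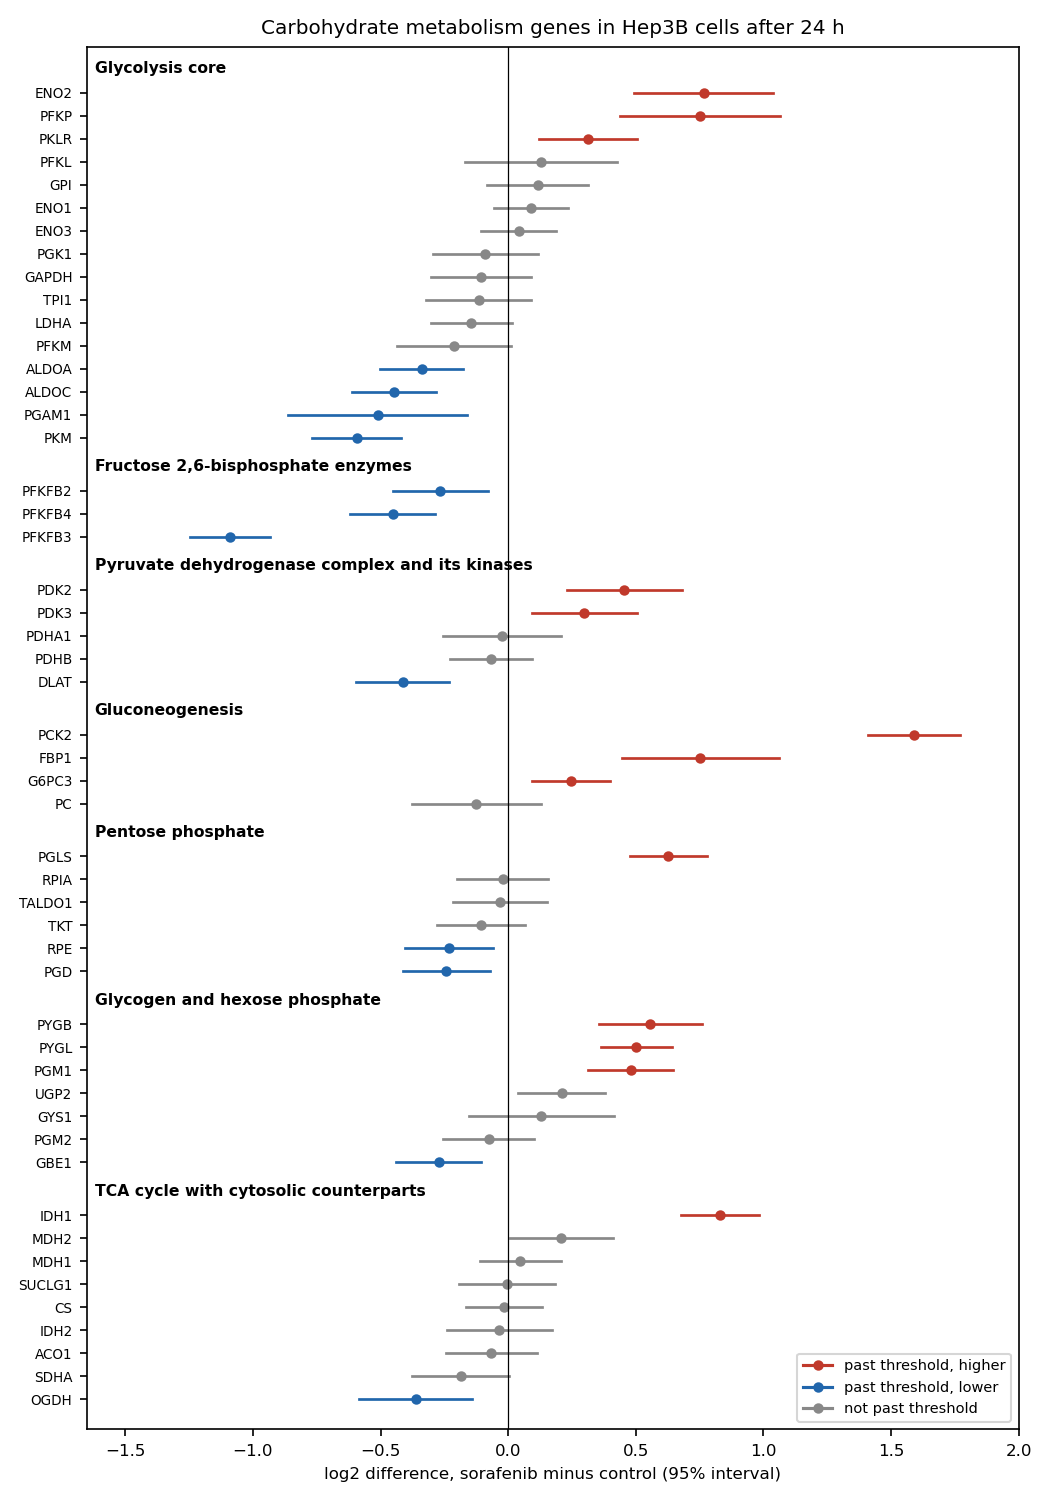
Log2 difference, sorafenib minus control, of the 50 measured genes by role (points, with 95% intervals from limma, 3 arrays per group); red is higher and blue lower past the threshold, grey did not pass, and PFKP and PDK2, which no control array detected, are drawn at fitted values. PCK2 stands furthest to the right at 1.59 and PFKFB3 furthest to the left at -1.09, and the 25 grey genes have intervals within 0.44 of 0.

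Of the PFKFB enzymes, bifunctional kinases and phosphatases that make and degrade the activator of phosphofructokinase, 3 of 4 listed were measured, and all 3 fell. Of all genes measured 17.0% fell, and 3 genes are too few to set a share against it. PFKFB3, the isoform with the highest kinase activity relative to its phosphatase, had log2 intensities of 11.13, 11.00 and 11.01 on sorafenib arrays and of 12.13, 12.14 and 12.14 on control arrays. Control values spanned less than 0.02, and all sorafenib values were lower. PFKFB3 fell 2.13-fold (log2 -1.09 ± 0.07, SE, limma adjusted p = 9.7e-05). A second, dimmer PFKFB3 probe fell too, by a log2 difference of -0.86 ± 0.09.

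PFKFB4, an isoform described in testis and in tumour cells, had 6.87, 6.80 and 6.95 on sorafenib arrays and 7.26, 7.36 and 7.35 on control arrays, without overlap (log2 -0.45 ± 0.07, adjusted p = 0.00341). The PFKFB4 difference was -0.29 without background correction, and its call was lost with median centring (-0.32, adjusted p = 0.0657). PFKFB2, the heart isoform, fell by 0.27 on the log2 scale (-0.27 ± 0.08, adjusted p = 0.0380). That call was lost in 16 of 21 other settings, among them the omission of any array but sorafenib replicate 1 (adjusted p 0.0709 to 0.112), and a second PFKFB2 probe differed by -0.11 without passing.

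In the glycolytic enzymes proper, 3 of 16 measured genes rose and 4 fell (43.8% past, background 36.7%). The other 9 did not pass, and the median log2 difference was -0.10. The rises include PFKP, which no control array detected. PKM, the pyruvate kinase that makes the last glycolytic step in most tissues other than liver, had 11.68, 11.55 and 11.74 on sorafenib arrays and 12.25, 12.20 and 12.30 on control arrays. PKM fell 1.51-fold (log2 -0.59 ± 0.07, SE, adjusted p = 0.00137), and its 2 other probes also fell, by -0.74 and -0.47. PKLR, the pyruvate kinase of liver and red cells, rose by 0.31 ± 0.08 (adjusted p = 0.0246), and its call was lost in 7 of 21 other settings, among them the omission of any array but sorafenib replicate 2 and control replicate 3 (adjusted p 0.0592 to 0.0737).

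PGAM1, phosphoglycerate mutase, had 10.49, 10.74 and 10.57 on sorafenib arrays and 11.03, 10.87 and 11.43 on control arrays. The groups did not overlap, but control replicate 3 lay well above the other 2. PGAM1 fell 1.42-fold (log2 -0.51 ± 0.15, adjusted p = 0.0355), but the call was lost without any array except control replicate 2 (adjusted p 0.0522 to 0.105). Without control replicate 3 the log2 difference was -0.35. The aldolases ALDOA and ALDOC, which split the fructose bisphosphate of the pathway, fell by a log2 difference of -0.34 ± 0.07 and -0.45 ± 0.07. Those falls kept their call in all 21 other settings, although a dimmer ALDOA probe did not pass (-0.31 ± 0.17).

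ENO2 and PFKP were higher without overlap between groups. ENO2, the neuronal enolase, had 6.87, 6.69 and 6.89 on sorafenib arrays and 5.82, 6.11 and 6.22 on control arrays, 2 of which detected it. It rose 1.70-fold (log2 0.77 ± 0.12, SE, adjusted p = 0.00302), but only 1.32-fold without background correction (log2 0.40). PFKP, the platelet type of phosphofructokinase, was near the detection limit, with 5.98, 5.77 and 6.08 on sorafenib arrays against 5.42, 5.20 and 4.96 on control arrays, where no array detected it. Its control level is therefore only a bound, and it was at least 1.03-fold higher with sorafenib (adjusted p = 0.00563, from control values not above background). PFKP passed the filter only through the sorafenib arrays, so a difference was built into its selection. Neither the adjusted p nor the lack of overlap is support for that difference. For genes written with a bound, the mean of the brighter group was divided by a ceiling for the dimmer one, which took on each array either the probe's signal or the weakest signal of any detected probe, whichever was larger.

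GAPDH and LDHA did not pass. GAPDH had 14.32, 14.25 and 14.36 on sorafenib arrays and 14.40, 14.30 and 14.54 on control arrays, overlapping groups (log2 -0.11 ± 0.08, 95% interval -0.30 to 0.09, adjusted p = 0.359). Its 2 other probes differed by -0.20 and -0.17 without passing. LDHA, the lactate dehydrogenase subunit of tumour cells, had 13.94, 13.92 and 13.85 on sorafenib arrays and 14.03, 14.01 and 14.11 on control arrays. Its groups did not overlap, and the difference of -0.14 ± 0.07 did not pass (adjusted p = 0.140). ENO1 differed by 0.09 and TPI1 by -0.12. For PGK1, which makes ATP in the pathway, the brightest probe differed by -0.09 ± 0.09 without passing, and a dimmer probe fell (-0.35 ± 0.08, adjusted p = 0.0117). The muscle and liver phosphofructokinases PFKM (-0.21) and PFKL (0.13), GPI (0.11) and the muscle enolase ENO3 (0.04) did not pass either. GAPDH, PGAM1, PGK1, TPI1, ALDOA, LDHA, ENO1 and PKM have processed pseudogenes or close relatives whose transcripts a probe may also bind, so single values of these genes are uncertain to that extent. LDHB, the other lactate dehydrogenase subunit, was below the detection filter on all 6 arrays, between 4.84 and 5.26.

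**Figure D2:**
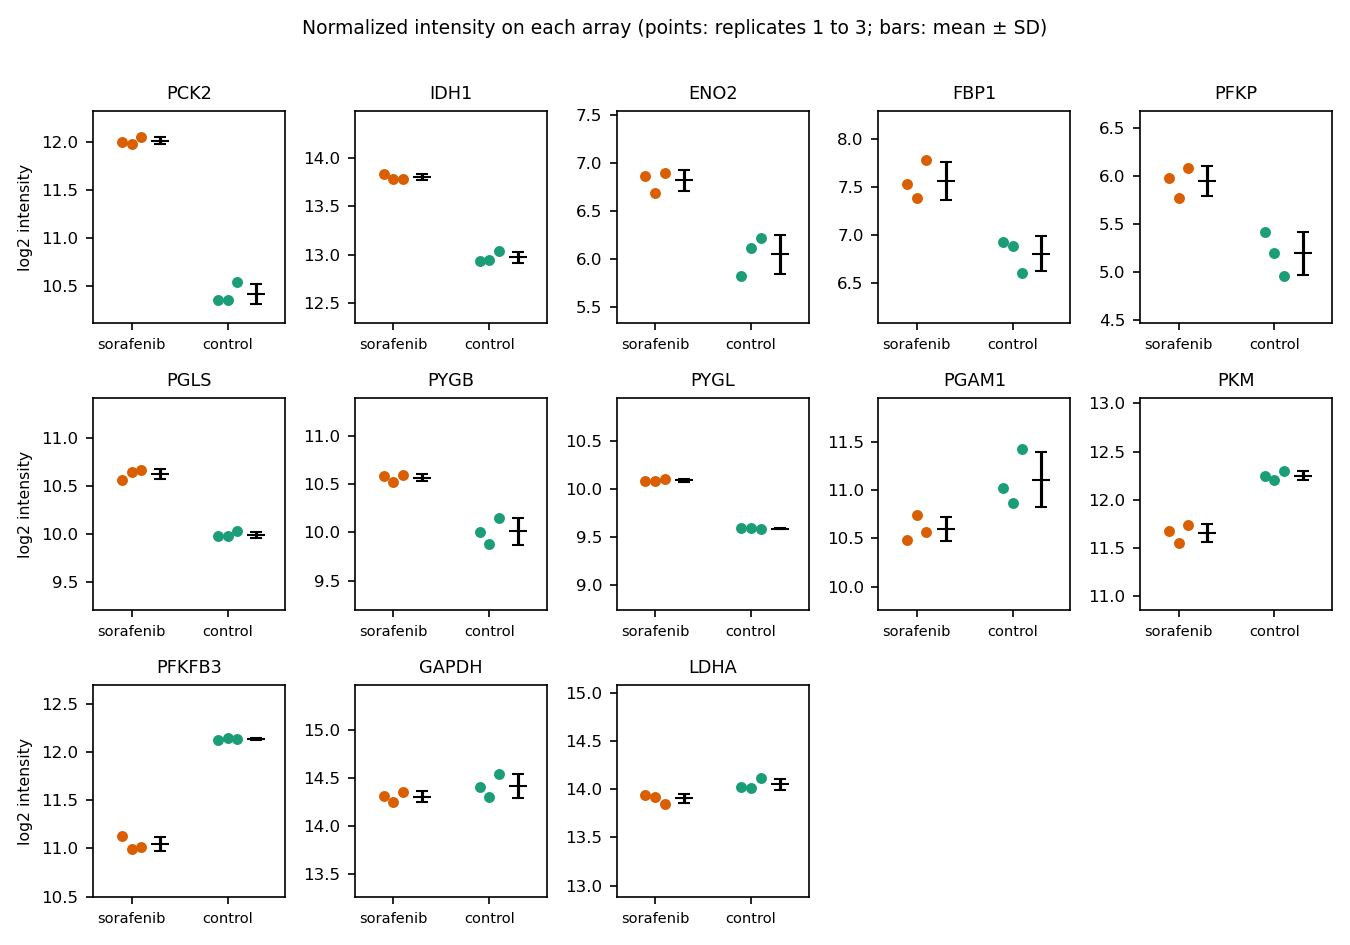
Normalized log2 intensity on each array for the 11 genes past the threshold by at least 0.5, with GAPDH and LDHA (points, replicates 1 to 3; bars, mean ± SD, n = 3). Every panel spans the same range of log2 units; PFKFB3 shows a gap of 1.09 between groups, PGAM1 has control replicate 3 at 11.43, and GAPDH is the panel in which the groups overlap.

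At the entry of pyruvate to mitochondria, 2 of 5 measured genes rose (background 19.7%) and 1 fell (background 17.0%), with 2 not past the threshold. So few genes give no result about this step as a whole. Pyruvate dehydrogenase is switched off by the PDK kinases. PDK2 had 6.09, 6.19 and 6.02 on sorafenib arrays and 5.65, 5.79 and 5.49 on control arrays, where no array detected it. It was at least 1.14-fold higher with sorafenib (adjusted p = 0.0110, from control values not above background). PDK2 passed the filter only through the sorafenib arrays, so a difference was built into its selection. The adjusted p is no support for that difference. PDK3 rose by 0.30 ± 0.09 (adjusted p = 0.0350) on its brightest probe. A second PDK3 probe differed by -0.34 ± 0.19 without passing, and the median over both was -0.019. The call was also lost without any array except control replicate 2 (adjusted p 0.0517 to 0.0990). DLAT, the acetyltransferase core of the complex, had 9.05, 9.21 and 9.18 on sorafenib arrays and 9.54, 9.65 and 9.50 on control arrays. The groups did not overlap, and DLAT fell (log2 -0.41 ± 0.08, adjusted p = 0.00714), a call lost with median centring (-0.32, adjusted p = 0.0528). Of the subunits that decarboxylate pyruvate, PDHA1 differed by -0.03 and PDHB by -0.07. PDK1 was below the detection filter.

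In gluconeogenesis 4 of 6 listed genes were measured, of which 3 rose (background 19.7%) and none fell (background 17.0%). So few genes give no result about the pathway as a whole. PCK2, the mitochondrial form of the enzyme that turns oxaloacetate into phosphoenolpyruvate, had 12.00, 11.98 and 12.05 on sorafenib arrays and 10.35, 10.36 and 10.55 on control arrays. All sorafenib values were above all control values. PCK2 rose 3.01-fold (log2 1.59 ± 0.08, SE, adjusted p = 5.9e-05). Its other probes rose by 1.55 ± 0.13 and by 0.70 ± 0.09. PCK2 is also a known target of the transcription factor ATF4, a mediator of the integrated stress response.

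PCK1, the cytosolic form that fasting induces in liver, was below the detection filter on both its probes. Its brighter probe had 4.82, 4.85 and 5.12 on sorafenib arrays and 5.66, 5.10 and 5.27 on control arrays, with a lowest detection p-value of 0.0234. FBP1, which reverses the phosphofructokinase step and is often low in liver cancer, had 7.53, 7.38 and 7.78 on sorafenib arrays and 6.93, 6.89 and 6.60 on control arrays. The groups did not overlap, and FBP1 rose 1.69-fold (log2 0.75 ± 0.13, adjusted p = 0.00500), or 1.40-fold without background correction (log2 0.49). G6PC3, the glucose phosphatase found in most tissues, rose by 0.25 ± 0.07 (adjusted p = 0.0252), a call lost in 9 of 21 other settings, among them the omission of any array but control replicate 3 (adjusted p 0.0573 to 0.0885). PC, pyruvate carboxylase, differed by -0.13 ± 0.11 (95% interval -0.38 to 0.13). The liver glucose phosphatase G6PC1 had 2 probes below the filter.

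The promoters of 4 genes are printed because they hold the ends of the range (PCK2 and PFKFB3) and 2 genes of the glycolytic core, ALDOC and LDHA. Each is the 250 bases before the RefSeq start in GRCh38.p14, read 5′ to 3′ on the gene's strand, with CACGTG (the E-box) in capitals. The 250 bases are chr14:24094061-24094310 on the plus strand for PCK2, chr10:6202682-6202931 on the plus strand for PFKFB3, chr17:28576896-28577145 on the minus strand for ALDOC and chr11:18394313-18394562 on the plus strand for LDHA. PFKFB3 and LDHA have 2 listed starts each, and the one shown is the one with more CACGTG, as the other has none. Of the glycolytic core ALDOA, GAPDH and PKLR also held CACGTG in this window, and the other genes did not.
PCK2: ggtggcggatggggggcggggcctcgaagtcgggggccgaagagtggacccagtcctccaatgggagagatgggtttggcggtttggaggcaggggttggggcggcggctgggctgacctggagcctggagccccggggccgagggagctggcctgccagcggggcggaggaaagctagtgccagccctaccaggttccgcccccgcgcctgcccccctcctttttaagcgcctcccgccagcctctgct
PFKFB3: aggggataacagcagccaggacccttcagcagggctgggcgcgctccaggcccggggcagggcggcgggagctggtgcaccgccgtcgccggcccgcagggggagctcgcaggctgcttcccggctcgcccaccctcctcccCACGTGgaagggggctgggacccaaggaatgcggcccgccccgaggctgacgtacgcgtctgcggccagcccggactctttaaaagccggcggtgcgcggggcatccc
ALDOC: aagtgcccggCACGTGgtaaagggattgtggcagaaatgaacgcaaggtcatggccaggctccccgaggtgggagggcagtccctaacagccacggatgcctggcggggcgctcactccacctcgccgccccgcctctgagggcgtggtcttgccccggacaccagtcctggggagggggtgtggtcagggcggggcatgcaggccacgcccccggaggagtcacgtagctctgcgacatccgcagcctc
LDHA: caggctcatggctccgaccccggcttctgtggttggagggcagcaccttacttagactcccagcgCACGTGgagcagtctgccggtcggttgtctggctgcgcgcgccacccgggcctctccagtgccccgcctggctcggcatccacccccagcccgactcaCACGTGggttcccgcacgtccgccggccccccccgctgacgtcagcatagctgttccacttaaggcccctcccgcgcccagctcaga

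CACGTG is its own reverse complement and stands 108 bases before the start in PFKFB3, 240 in ALDOC, and 185 and 87 in LDHA. No match was found in the 250 bases of PCK2. In all, 10 of 48 measured genes with a listed promoter held CACGTG (20.8%), against 7.73% of 27305 genes with one. A gene was counted when any of its listed starts matched, and the 27305 genes are not only those measured here. The 48 genes had 75 starts and the 27305 had 35116, so shares of matches are not on an equal footing. The shorter core ACGTG, which CACGTG contains, on either strand was found in 24 of 48 (50%), against 21.7% of all genes. It was found in 8 of 13 genes that rose, 6 of 10 that fell and 10 of 25 that did not pass. The promoters of these genes were richer in G and C, with a median of 67.6% over 75 starts against 58.0% over 35116 starts. TGATGNAAN, the amino acid response element, was found in none of the 48 on either strand, against 3.87% of all genes. A match describes letters in this window and not a bound site.

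In the pentose phosphate pathway 1 of 6 measured genes rose and 2 fell (50% past, background 36.7%). PGLS, the lactonase that follows the first dehydrogenase of the pathway, had 10.57, 10.64 and 10.66 on sorafenib arrays and 9.98, 9.98 and 10.03 on control arrays. It rose 1.55-fold (log2 0.63 ± 0.06, SE, adjusted p = 0.000631), and the 2 groups lay more than 0.5 apart. PGD, the next dehydrogenase, which yields NADPH, fell by a log2 difference of -0.24 ± 0.07 (adjusted p = 0.0391). RPE, the epimerase of the ribose branch, fell likewise (-0.23 ± 0.07, adjusted p = 0.0461). The PGD call was lost in 9 of 21 other settings, among them the omission of any array but sorafenib replicate 3 (adjusted p 0.0550 to 0.118). The RPE call was lost in 12, among them the omission of any array but sorafenib replicate 1 (adjusted p 0.0789 to 0.115). RPIA, TKT and TALDO1, which interconvert the sugar phosphates, differed by -0.02, -0.11 and -0.03.

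Among glycogen and hexose phosphate genes, 3 of 7 measured genes rose and 1 fell (57.1% past, background 36.7%), with a median of 0.21. Glycogen phosphorylase releases glucose units, and both measured isoforms rose. PYGB, the brain type, had 10.58, 10.53 and 10.60 on sorafenib arrays and 10.01, 9.88 and 10.15 on control arrays (log2 0.56 ± 0.09, adjusted p = 0.00314). PYGL, the liver type, had 10.08, 10.08 and 10.11 on sorafenib arrays and 9.59, 9.59 and 9.58 on control arrays (log2 0.50 ± 0.06, adjusted p = 0.00108). Its replicates spread by less than 0.03 in each group.

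PGM1, the mutase that links glycogen to glycolysis, rose by 0.48 ± 0.07 (adjusted p = 0.00268). GBE1, the branching enzyme, fell (log2 -0.27 ± 0.07, adjusted p = 0.0227), and its call was lost in 7 of 21 other settings, among them the omission of any array but replicate 3 of either group (adjusted p 0.0569 to 0.0815). UGP2, which makes the glucose donor for synthesis, differed by 0.21 ± 0.07 without overlap between groups and missed the threshold (adjusted p = 0.0635). Its dimmer probes differed by 0.14 ± 0.15 and by -0.42 ± 0.28, without passing. The muscle glycogen synthase GYS1 differed by 0.13 ± 0.12, PGM2 differed by -0.08, and the liver synthase GYS2 was below the filter.

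In the TCA cycle and its cytosolic counterparts, 1 of 9 measured genes rose and 1 fell, with 7 not past the threshold (22.2% past, background 36.7%). IDH1, the cytosolic dehydrogenase that makes NADPH from isocitrate, had 13.84, 13.79 and 13.78 on sorafenib arrays and 12.93, 12.95 and 13.03 on control arrays. Each sorafenib value was above each control value. IDH1 rose 1.78-fold (log2 0.83 ± 0.06, SE, adjusted p = 0.000225), and its second probe rose by 0.93 ± 0.10. IDH2, its mitochondrial counterpart, had 10.80, 10.97 and 11.06 on sorafenib arrays and 11.02, 10.90 and 11.01 on control arrays, a difference of -0.03 ± 0.09 with a 95% interval of -0.24 to 0.17.

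OGDH, which makes succinyl-CoA from oxoglutarate, fell by a log2 difference of -0.36 ± 0.09 (adjusted p = 0.0228), a call lost in 7 of 21 other settings, among them the omission of any array but sorafenib replicate 3 and control replicate 2 (adjusted p 0.0643 to 0.0789). CS (-0.02), SUCLG1 (0.00) and SDHA (-0.19) of the cycle did not pass. The cytosolic aconitase ACO1 (-0.07) and the malate dehydrogenases MDH1 (0.05) and MDH2 (0.21) did not pass either.

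**Figure D3:**
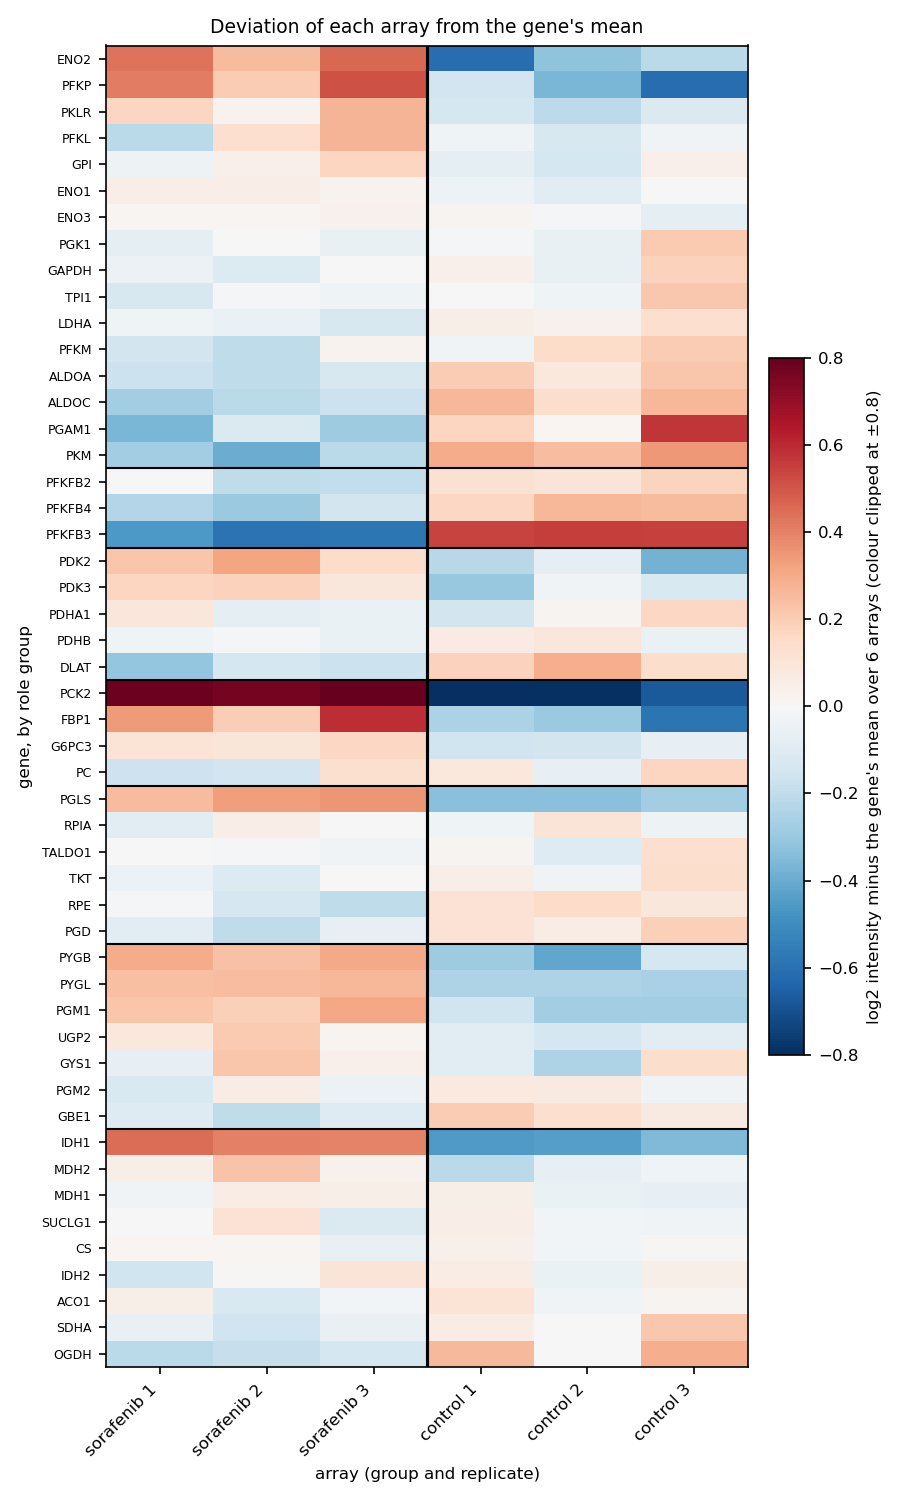
Deviation of each array from the gene's mean over all 6 arrays (log2 intensity, colour clipped at 0.8 either way) for the 50 genes, in the role groups of the text and by falling difference within each. PCK2, PFKFB3 and IDH1 split by group on all arrays, and control replicate 3 is the reddest control column through the middle of the glycolytic block.

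Replicates of a group also differed in a way that the glycolytic genes shared. Control replicate 3 was the highest of the 3 control arrays for 14 of 16 glycolytic genes, against 33.5% of all genes, and sorafenib replicate 3 was the highest sorafenib array for 11 of 16, against 44.8% of all genes. In control arrays the median deviation of these 16 genes from their group mean was 0.06 on replicate 3 and -0.06 on replicate 2. Replicate 3 of each group also stood apart on the second principal component of all tested probes, which held 13.5% of the variance. With both of these arrays left out, 17 of the 25 calls remained, with 10 genes higher and 7 lower. The shares were then 20% and 14%, against 14.9% and 14.1% of all genes. The SD between arrays of a group had a median of 0.07 in sorafenib and of 0.07 in control, and was largest at 0.25 for PFKL in sorafenib and 0.29 for PGAM1 in control.

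Other probes gave a second reading of 17 genes, through 22 dimmer probes. Of these, 17 had the same call as the brightest probe and 17 the same sign, and none was past the threshold in the opposite direction. For genes past the threshold, 6 of 10 such probes passed the same way. These were the probes of PCK2, IDH1, PFKFB3 and PKM, while those of ALDOA, PFKFB2, PGAM1 and PDK3 did not pass.

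**Figure D4:**
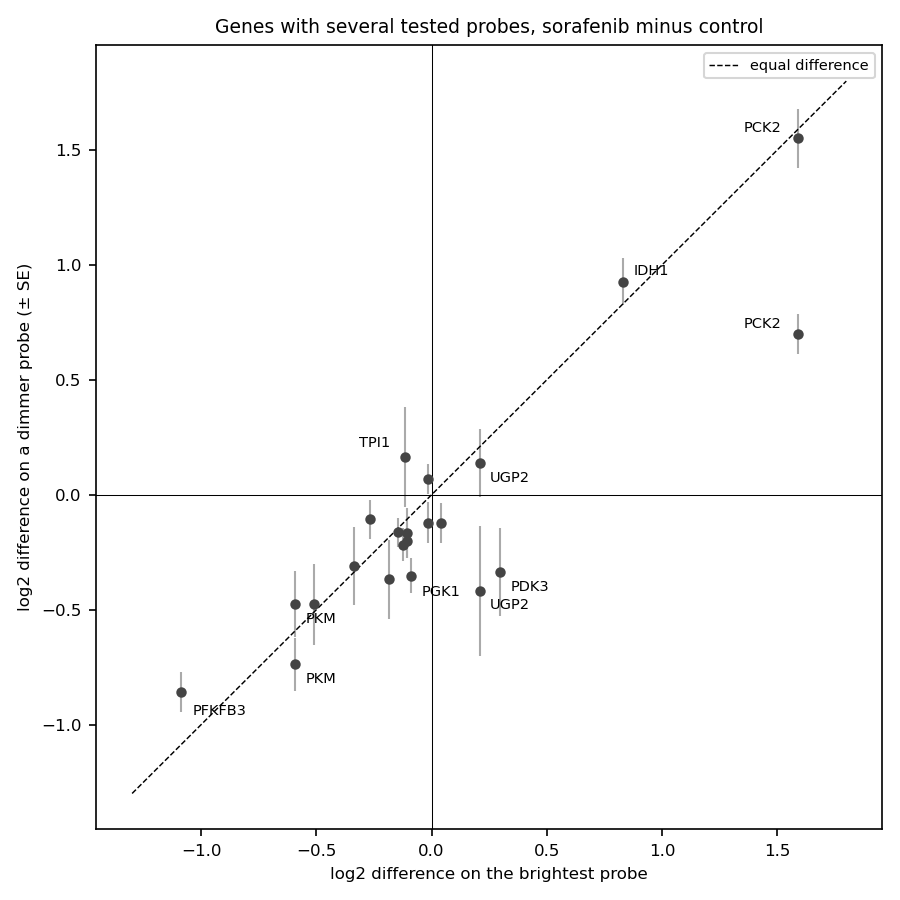
Log2 difference (sorafenib minus control) on each dimmer probe, with its SE, against that on the gene's brightest probe, for 22 probes of 17 genes; the dashed line marks equal differences. One PCK2 probe (0.70 against 1.59) and the PDK3 probe (-0.34 against 0.30) lie furthest below the line.

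Of 71 further genes of these pathways, 61 had a named probe and 41 were measured: 13 rose, 10 fell and 18 did not pass (56.1% past, background 36.7%). Those past the threshold by at least 0.5 were 12 (29.3%, background 15.3%). Among transporters, MPC1 of the mitochondrial pyruvate carrier had 11.66, 11.73 and 11.78 on sorafenib arrays and 12.32, 12.57 and 12.32 on control arrays (log2 -0.68 ± 0.09, adjusted p = 0.00174). Its partner MPC2, chosen after its value was seen, fell too (-0.40 ± 0.07), as did SLC2A2, the liver glucose transporter GLUT2 (-0.64 ± 0.14). The glucose transporter SLC2A1 (-0.04) and the glucose 6-phosphate transporter SLC37A4 (0.05) did not pass.

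In glycogen metabolism the phosphorylase kinase subunit PHKA1 rose by 0.61, the targeting subunit PPP1R3C by 0.54, the primer protein GYG2 by 0.52 and the glycogen-binding STBD1 by 0.52. Of the other phosphorylase kinase subunits PHKB rose (0.26) and PHKG2 fell (-0.26), while PHKA2 (-0.16) and the primer protein GYG1 (-0.16) did not pass; these 4 were chosen after their values were seen. GSK3B, a kinase that inhibits glycogen synthase, fell (log2 -0.58 ± 0.07). The muscle mutase PGAM2 rose by 0.96 ± 0.10. H6PD, an enzyme of the endoplasmic reticulum that makes NADPH, rose by 0.67, the ribose kinase RBKS by 0.58 and the OGDH relative OGDHL by 0.62, and the sedoheptulose kinase SHPK fell (-0.61). Among hexokinases, which start glycolysis, HKDC1 rose by 2.65 ± 0.07, while HK1 (-0.24 ± 0.15) and HK2 (-0.18 ± 0.06) did not pass.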

How the data were processed

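RNA of the 6 samples was hybridised to Illumina BeadChips after biotin labelling, per the labels' protocols. Per the file headers, the authors deposited 47321 probes per array, each with a non-normalized intensity and its detection p-value. The deposited log2 values were log2 intensities quantile-normalized over the 6 arrays (largest difference 5.0e-07 on recomputing), so they served as an alternative. No scanner, slide or scan date is recorded in the labels or headers. Intensities were background-corrected by neqc (offset 16, background from the detection p-values), quantile-normalized and log2-transformed with limma 3.58.1 in R 4.3.3. Each of 16909 probes had sorafenib compared with control by lmFit and eBayes, two-sided and without a block. The fit was tested on simulated data. Errors are limma's moderated SE, with 3 arrays per group, and their number limits the precision. A bulk array cannot tell less RNA per cell from fewer cells that hold it. Probe names came from the platform annotation, which gave 1 gene symbol to 30112 probes (30073 of them matched to RefSeq by Entrez ID), several to 8 and none to 17201. Promoters are from RefSeq, GRCh38.p14, of which 48 of 50 genes had one.

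The genes, lists and alternatives were chosen with earlier results of these data known. By the naming rule, any gene of the list may be named. Values on each array are given for genes past the threshold by at least 0.5, for those undetected in a group, and for GAPDH, LDHA, PKM and PCK1, and other values were added after they were seen. Same-numbered replicates deviated together with correlations of 0.09, 0.10 and 0.25, which did not meet the rule for pairing. Alternatives were other background corrections, normalizations, filters, models of the variance, weights on arrays, a median over the probes of a gene, a block on the replicate number and leaving out arrays. Centring on the tested probes and leaving out both replicates 3 were added after the data had been seen.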

Additional observations from a re-analysis of the deposited data

How the results depend on the processing

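Of 25 genes past the threshold, 11 passed under all 21 alternatives. Another 3 (PFKP, ENO2 and PDK2) passed under 20 and were not measured with detection on all 6 arrays. PFKP and PDK2 passed the main filter only through the sorafenib arrays, where they were higher. A difference was thus built into their selection, and their passes are no support for it. In the alternatives that measured them, 24 kept their direction. The exception was PDK3, at -0.019 with the median over its probes. PCK2 ranged from 1.54 to 1.64, PFKFB3 from -1.14 to -0.97 and IDH1 from 0.73 to 0.88. Of the 25 genes that did not pass, 21 passed in none, and the 4 others were PGK1, LDHA, UGP2 and MDH2. The number past the threshold was 16 of 56 without the filter on dim probes (28.6%, against 14.3% of all genes). The number lower was 5 with median centring (10%, against 8.43%) and 6 of 56 without the filter (10.7%, against 6.30%). It was 7 of 52 with detection under 0.05 on at least 1 array (13.5%, against 10.8%). With both replicates 3 left out it was 7 (14%, against 14.1%). In the main fit 17.0% of all genes were lower. In the fits that left out 1 array, 16 to 19 genes passed (32% to 38%), with 10 to 12 higher and 6 to 9 lower. Of all genes 2710 to 3367 passed (25.6% to 31.8%), all with fewer samples. The fewest lower were 6 without sorafenib replicate 2 or control replicate 1, and 7 without control replicate 3. These were 12% and 14%, against 11.4% to 13.8% of all genes. With the replicate block 23 genes passed (46%), and 3634 of all genes (34.3%). Same-numbered replicates had not met the rule for pairing, although replicates 3 deviated together with a correlation of 0.25. The cause of these changes was not tested. Without background correction PFKFB2 was -0.17 and PDK3 0.15, with median centring GBE1 was -0.18, and with both replicates 3 left out PGAM1 was -0.33. Genes near the detection limit (PFKP, PDK2, ENO2 and PDK3) are limited by their low signal over background.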
